A study of Rattus norvegicus with 4 samples.

Results

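The transcripts examined were those of 10 genes of the tumour necrosis factor (TNF) and NF-κB pathway: the cytokine gene Tnf, the receptor genes Tnfrsf1a and Tnfrsf1b, the kinase gene Ikbkb, the inhibitor gene Nfkbia and the NF-κB subunit genes Rela, Rel, Relb, Nfkb1 and Nfkb2. They were chosen by symbol. These genes, and the gene lists and motifs used below, were chosen with earlier results of these data known. Every array probe whose RefSeq accession belonged to any of these symbols was taken, which gave 10 probes for 8 genes. Rel and Relb were matched by no probe, so no value is given for them. The 8 measured genes stood among 16581 genes with a symbol on the array.

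The RNA came from NR8383, an established line of rat alveolar macrophages that was started from lung washings. All 4 samples were biological replicates of 1 group: cells passaged 20 times and given 9.25 µg/mL of NiZnFe2O4, a nickel, zinc and iron oxide by its formula, for 4 h. For all 4 samples the labels also give seeding 48 h before exposure and 15% serum. Each replicate was hybridised to 1 one-colour array. The design also names cells left untreated, whose arrays were not analysed here. Everything that follows is therefore a description of exposed cells and of the spread between their replicates, and says nothing of what the exposure changed.

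TNF is a cytokine that macrophages make in large amounts when they meet microbes, particles or damaged cells. Binding of TNF to its receptors brings adaptor proteins and ubiquitin ligases together, which switch on the IκB kinase complex. That kinase marks the inhibitor IκBα for destruction, and the NF-κB dimers it held in the cytoplasm enter the nucleus and switch on genes of inflammation and survival. Among these genes are Tnf itself and the gene for IκBα, so the pathway feeds both its own start and its own stop.

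The lung macrophage label was checked against markers. Here and below a gene is called detected where, on each of the 4 arrays, the scanner software flagged it as well above background by the same probe. Of 14 macrophage markers, 9 were detected, among them Cd68, Tyrobp and Csf1r, against 38.7% of all genes with a symbol. Marco, Cd163 and Adgre1 passed on no array, Msr1 on all but replicate 3 and Mrc1 on all but replicate 4. None of 6 lung epithelial, 4 T and B cell and 3 measured neutrophil markers was detected (Cd3d passed on 3 arrays), and of 5 fibroblast and endothelial markers Cdh5 alone was. Between 21812 and 24981 of 58717 transcript spots per array were well above background, none was saturated, and the 6418 detected genes, which are not independent replicates, gave a Pearson's r of 0.975 to 0.986 between any pair of arrays.

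Because NF-κB proteins act on DNA at κB sites, the sequences upstream of these genes were searched for such sites. RefSeq sequence of the 250 bases before the transcript start (build GRCr8) was found for 8 of the 10 genes, Relb and Ikbkb being the other two. A κB-type motif (GGG, then 2 free bases, then TTTCC), searched on both strands, was present upstream of 3 of the 8 genes, Nfkbia, Nfkb2 and Rel, and in 1.30% of all 33469 upstream windows of this length. The match lay 31 to 22 bases before the start of Nfkbia on the reverse strand, 20 to 11 bases before that of Nfkb2 on the forward strand and 81 to 72 bases before that of Rel on the reverse strand. The motif TATAAA, which does not overlap it, was found upstream of Tnf alone among the 8, 46 to 41 bases before the start, and in 12.9% of all windows. The 3 upstream sequences below are printed because they belong to measured genes with a match: the inhibitor and the precursor subunit with a κB-type match and the cytokine with a TATA match. Capitals mark the match, and each sequence runs 5′ to 3′ in the direction of its gene.
Nfkbia, chr6:78597073-78597322, minus strand: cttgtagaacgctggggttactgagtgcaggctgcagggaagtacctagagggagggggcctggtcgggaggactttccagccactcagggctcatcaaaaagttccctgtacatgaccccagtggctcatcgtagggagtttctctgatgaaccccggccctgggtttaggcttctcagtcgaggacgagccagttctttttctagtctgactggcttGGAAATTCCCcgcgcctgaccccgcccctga
Nfkb2, chr1:255108124-255108373, plus strand: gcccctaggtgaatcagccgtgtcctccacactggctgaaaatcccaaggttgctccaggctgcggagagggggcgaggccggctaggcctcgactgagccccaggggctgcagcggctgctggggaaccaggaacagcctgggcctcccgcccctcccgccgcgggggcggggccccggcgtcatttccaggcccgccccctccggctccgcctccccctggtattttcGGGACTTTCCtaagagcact
Tnf, chr20:3626435-3626684, plus strand: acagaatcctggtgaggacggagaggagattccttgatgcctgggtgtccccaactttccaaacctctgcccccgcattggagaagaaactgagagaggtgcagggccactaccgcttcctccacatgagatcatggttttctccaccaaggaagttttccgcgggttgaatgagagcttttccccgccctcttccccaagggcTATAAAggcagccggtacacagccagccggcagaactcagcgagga
In the printed direction the Nfkbia match reads as its reverse complement. The Nfkb2 window lies inside the annotated gene (chr1:255106010-255114649) and so does the Rel window (chr14:101921939-101922188) in its gene (chr14:101891238-101922324). That of Nfkbia overlaps the 5′ end of its gene (chr6:78593844-78597307). For these 3 genes the match is thus upstream of the transcript start used by the RefSeq table and not of the whole annotated gene. The Nfkb1 window, which holds no match, also lies inside its gene. A match describes letters only, and the absence of one says nothing about whether a factor binds there.

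**Figure D1:**
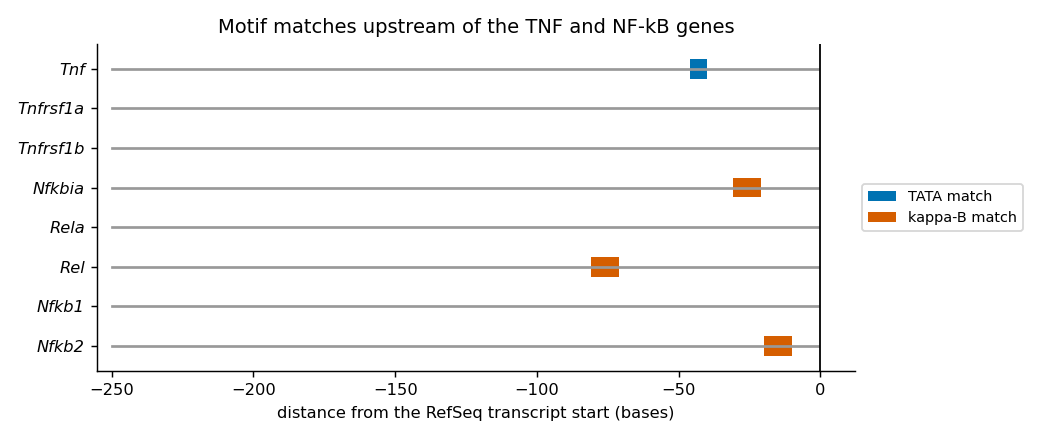
Positions of motif matches in the 250 bases before the RefSeq transcript start of the 8 genes with a sequence, with the distance from the start in bases on the x axis and 1 line per gene. Orange blocks are matches to the κB-type motif and the blue block is the TATA match; the κB-type matches of Nfkbia and Nfkb2 lie within 31 bases of the start and that of Rel begins 81 bases before it.

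Of the 8 measured genes 7 were detected: Tnf, Tnfrsf1a, Ikbkb, Nfkbia, Rela, Nfkb1 and Nfkb2. Tnfrsf1b passed on no array. Over all 16581 genes with a symbol the share detected was 38.7%. Counted by probe, 7 of the 10 probes passed on every array, against 25.4% of all 45598 probes, of which 24489 have no symbol here. The share among probes with a symbol was not taken, so these are shares of unlike sets. Under the looser flag of a signal positive and significant against background the same 7 genes were counted, against 50.9% of all genes. When every probe of a gene had to pass, the count was 5, because the second probes of Tnf and Nfkb1 did not pass, against 33.2% of all genes under the same rule. Signals are given below in the intensity units of the scanner software, which are not scaled between arrays, and levels are log2 signals relative to the 75th percentile over all probes of the same array. A probe's signal depends on its sequence, so no gene's level is ranked against that of another.

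Tnf, the ligand (gene at chr20:3626685-3629303 in GRCr8), was read by a pair of probes. The first gave signals of 498, 348, 379 and 321 on replicates 1 to 4, with spot errors estimated by the scanner software of 50.0, 34.9, 38.1 and 32.3. On the scaled axis these were log2 levels of 3.58, 3.41, 4.01 and 3.70, or 3.67 ± 0.25 (SD, n = 4). Replicate 3 was the highest and replicate 2 the lowest, a span of 1.52-fold, and the SD was 0.14 without replicate 3. The second Tnf probe gave signals of 15.99, 8.61, 11.6 and 9.08, was positive against background on all 4 arrays and well above it on none. Both probes carry the same accession, so the detection of Tnf rests on 1 of 2 probes.

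The receptors differed in detection. Tnfrsf1a encodes TNF receptor 1, which carries a death domain and is made by most cell types (chr4:159837119-159849817). Its signals were 1180, 879, 657 and 674 on replicates 1 to 4, and its log2 levels were 4.82, 4.75, 4.81 and 4.77, or 4.79 ± 0.04 (SD, n = 4). With this scaling the 4 arrays lay within 1.05-fold of each other, and 99.5% of the 6418 detected genes had an SD at least as large. The SD was 0.22 with the normexp background correction and 0.40 without scaling. Tnfrsf1b encodes TNF receptor 2, which lacks a death domain and is found mainly on immune and endothelial cells (chr5:162356250-162387411). Its only probe gave signals of 6.19, 7.85, 3.44 and 4.45, and the software's spot errors were 3.34, 2.87, 3.45 and 3.48. The lowest signal that was well above background on an array ranged from 13.6 to 17.3, and the Tnfrsf1b signals lay below that range. With a single probe, a dim probe and a scarce transcript cannot be told apart, so no bound on the transcript is given. The probe was positive against background on replicates 1, 2 and 4 and not on replicate 3.

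**Figure D2:**
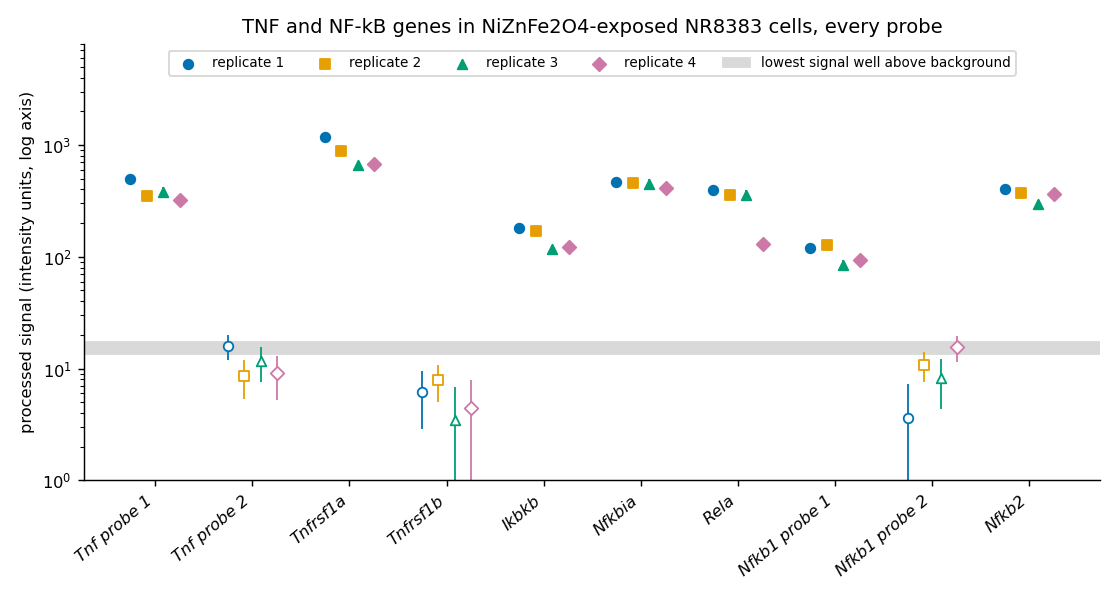
Processed signal of every probe of the 8 measured genes (y axis, intensity units on a log axis, not scaled between arrays) on the 4 arrays of NiZnFe2O4-exposed cells; filled symbols are well above background, open symbols are not, bars are the software's spot error and are cut at the axis where they pass below it, and the grey band spans the lowest signals well above background. The second probes of Tnf and Nfkb1 and the Tnfrsf1b probe lie within or under the band with signals of at most 15.99, while the other probes lie above 85.

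Ikbkb encodes the catalytic subunit IKKβ, which phosphorylates IκBα (chr16:76021968-76075717). Its signals were 181, 170, 116 and 123 on replicates 1 to 4. Its log2 levels were 2.12, 2.38, 2.31 and 2.32, a mean of 2.28 ± 0.11 (SD, n = 4). On the scaled axis replicates 2, 3 and 4 lay close together, and replicate 1 was the lowest of the 4, with an SD of 0.04 without it. The unscaled Ikbkb signal was the highest on replicate 1.

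Nfkbia encodes IκBα, the inhibitor that holds NF-κB dimers in the cytoplasm. Signals were 470, 457, 448 and 412, and these deposited values had a coefficient of variation of 5.54%. The log2 levels were 3.50, 3.80, 4.25 and 4.06, or 3.90 ± 0.33 (SD, n = 4), with replicate 1 lowest and replicate 3 highest. Its spread thus depended on the scaling: without it the SD of the log2 signal was 0.08. For Tnfrsf1a it was the other way round, 0.04 with scaling and 0.40 without. The arrays' 75th percentiles ranged from 23.5 to 41.6 intensity units, so a signal that was alike on all arrays, as that of Nfkbia was, is spread out once it is divided by them.

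The subunit genes follow. Rela encodes p65, the subunit with the transactivation domain of the most common NF-κB dimer (chr1:212354336-212364815). Its single probe gave signals of 394, 355, 358 and 131 on replicates 1 to 4, with spot errors of 39.6, 35.6, 36.0 and 13.7. Replicate 4 was well under the other 3 arrays, although still well above background. The log2 levels were 3.24, 3.44, 3.93 and 2.40, or 3.25 ± 0.64 (SD, n = 4), and the span between replicates 3 and 4 was 2.88-fold. The mean was 3.54 ± 0.35 (SD, n = 3) without replicate 4. Of the 6418 detected genes 131 (2.04%) had an SD at least as large as that of Rela. The gap between replicate 4 and the next array was 0.55 of the whole range, under Dixon's critical value for 4 samples. None of the 7 genes passed that value, against 4.91% of all detected genes.

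The spots around the Rela spot were read to see whether they deviated with it. Rela lies in the last of 164 columns of the array, at row 115. On replicate 4 its log2 level differed by -1.04 from the median over replicates 1 to 3. The 39 neighbouring spots within 10 rows and columns that passed on the other arrays had a median deviation of 0.22 there and a lowest value of -0.73, so 0 of 39 were as low. On replicate 3 the Rela spot deviated by 0.69, and all 41 neighbours were lower. For the other 6 genes above background, the median deviation of the neighbouring spots lay between -0.21 and 0.23 over the 4 arrays. None of the 10 probes had a spot with an outlier flag.

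**Figure D3:**
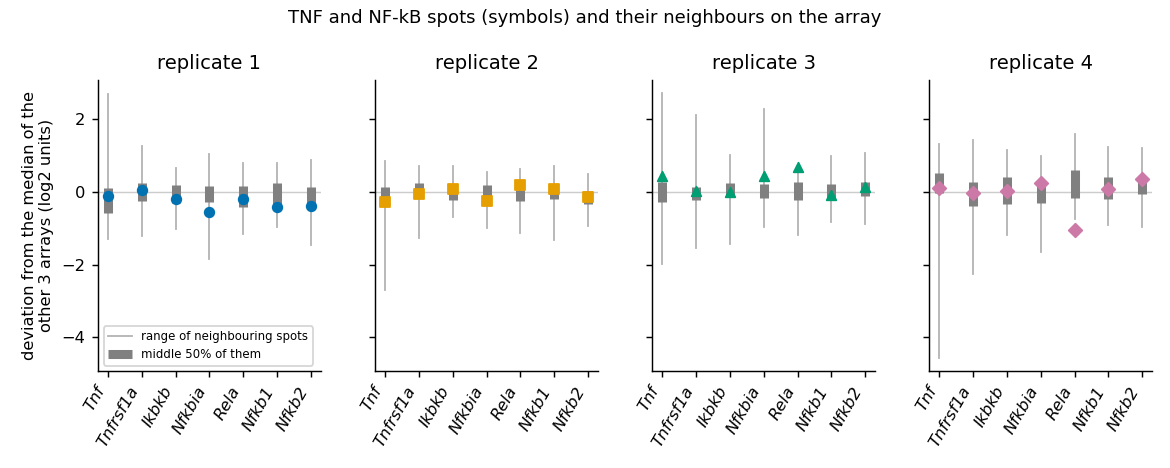
Deviation of the spots of the 7 genes above background (coloured symbols) from the median of the other 3 arrays, in log2 units, with 1 panel per replicate. The thin grey line is the range and the thick grey bar the middle 50% of the neighbouring spots within 10 rows and columns; the Rela spot on replicate 4, at -1.04, lies below all 39 of its neighbours.

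Nfkb1 encodes the precursor p105, which is cut to the subunit p50 (chr2:226689745-226805897). Its first probe gave signals of 119, 126, 85.0 and 94.4 on replicates 1 to 4 and log2 levels of 1.51, 1.95, 1.85 and 1.93, or 1.81 ± 0.20 (SD, n = 4). On the scaled axis replicate 1 was the lowest of the 4, and the SD without it was 0.05. The unscaled signal of this probe was the lowest on replicate 3. The second Nfkb1 probe gave 3.64, 10.8, 8.28 and 15.4, was well above background on no array and was positive against it on replicates 2, 3 and 4. As for Tnf, detection of Nfkb1 therefore rests on 1 of 2 probes that carry the same accession. Nfkb2 encodes the precursor p100, which is cut to p52 in the slower, non-canonical branch of the pathway. Its signals were 400, 375, 294 and 365 and its log2 levels were 3.26, 3.52, 3.65 and 3.88, or 3.58 ± 0.26 (SD, n = 4). On the scaled axis replicate 1 was the lowest and replicate 4 the highest, 1.54-fold apart. The unscaled Nfkb2 signal was the highest on replicate 1 and the lowest on replicate 3.

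Over the 7 detected genes the median SD between replicates was 0.25 log2 units, with a range of 0.04 to 0.64. The median over all 6418 detected genes was 0.23, and their 10th and 90th percentiles were 0.10 and 0.43. The spot error given by the software was about 10% of the signal for each of the 7 detected probes, which corresponds to 0.14 to 0.15 log2 units. The SD of Tnfrsf1a and Ikbkb was smaller than this spot error, at 0.24 and 0.76 of it. That of Nfkb1, Tnf, Nfkb2 and Nfkbia was 1.33, 1.74, 1.78 and 2.26 times as large, and that of Rela 4.35 times. These ratios depend on the scaling. Without it the SDs of Tnfrsf1a and Ikbkb were 0.40 and 0.32, above the spot error, and that of Nfkbia was 0.08, below it. With normexp the SD of Tnfrsf1a was 0.22 and that of Nfkb2 0.13, while that of Rela was 0.56. Normexp starts from the median signals and adds an offset of 50. The spot error was not recomputed for it, so these 3 SDs have no matching error. Removal of the local trend gave Nfkb2 an SD of 0.12. On replicate 1, 6 of the 7 genes lay under their own mean, with a median deviation of -0.16, where that of all genes above background was -0.06. On replicate 3 all 7 lay above it, with a median deviation of 0.07 where that of all genes was 0.02. This count of 7 was 5 with the percentile over detected probes, 3 with the normexp correction, 4 without replicate 1 and 2 without scaling. The direction on replicate 3 is thus not a property of the signals as deposited. That on replicate 1 rests on the scaling too. Among the signals as deposited, replicate 1 was the highest for each of the 7 genes except Nfkb1.

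**Figure D4:**
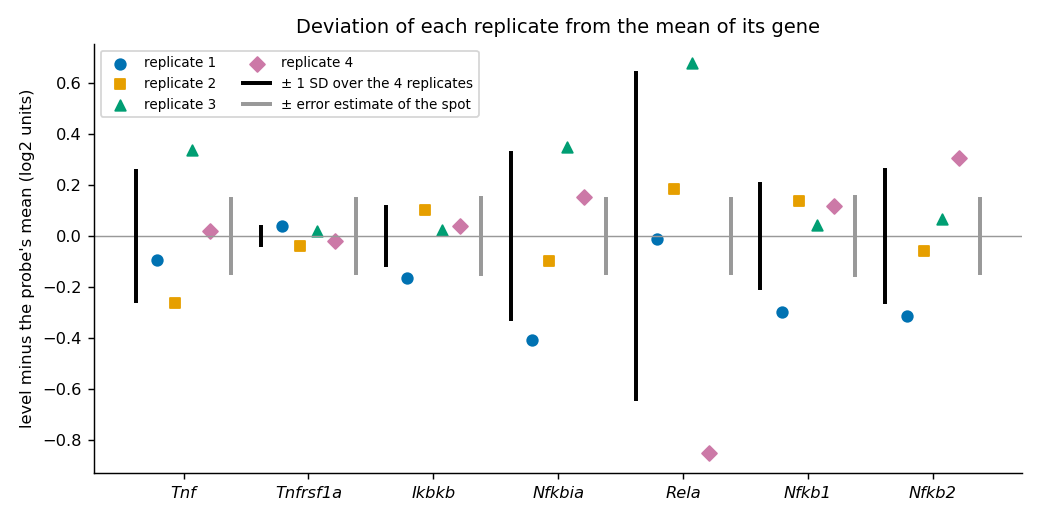
Log2 level of each replicate minus the mean of its gene for the 7 genes above background (y axis, log2 units); black bars are ± 1 SD over the 4 replicates and grey bars ± the software's spot error. On this scaling the SD of Tnfrsf1a is 0.04 and that of Rela 0.64, with replicate 4 at -0.85; without scaling the SD of Tnfrsf1a is 0.40 and the smallest is that of Nfkbia, 0.08.

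The rest of the pathway was read from 5 gene lists with 107 genes, of which 94 had a probe. Of these, 47 were detected, 8 passed on 1 to 3 arrays and 39 passed nowhere, a share of 50.0% against 38.7% of all genes with a symbol. The median SD of the 47 was 0.24. The count was 59 of 94 with the looser flag, against 50.9% of all genes, and 39 of 94 when every probe of a gene had to pass, against 33.2% of all genes.

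Of 16 measured genes of the receptor complex and its adaptors, 11 passed on all 4 arrays, against 38.7% of all genes. When every probe of a gene had to pass, 9 of the 16 did, against 33.2% of all genes. Tradd, the adaptor that binds the death domain of TNF receptor 1, gave signals of 1055, 849, 648 and 704 on replicates 1 to 4 and a log2 level of 4.74 ± 0.08 (SD, n = 4). Ripk1, the kinase that scaffolds the complex, stood at 2.16 ± 0.14, and Traf2, which brings in the ubiquitin ligases, at 1.94 ± 0.34 (SD, n = 4 each). The ubiquitin ligase gene Birc2 stood at 0.98 ± 0.29 (SD, n = 4), while its close relative Birc3, itself an NF-κB target, passed on replicate 1 only. Rnf31, the catalytic subunit of the ligase that builds linear ubiquitin chains, stood at 2.13 ± 0.33 (SD, n = 4). Casp8, the protease of the death branch, stood at 0.67 ± 0.42 (SD, n = 4), by 1 of its 2 probes. Cflar, which encodes the inhibitor of that protease, passed on no array with either of its 2 probes. Traf1 and Traf6 also passed on none, and Fadd passed on all but replicate 3. Adam17, the protease that sheds TNF from the cell surface, stood at 1.14 ± 0.30, and the kinase gene Map3k7 (TAK1) at 0.10 ± 0.39 (SD, n = 4 each), the last by 1 of 2 probes. The Map3k7 signals were 60.3, 30.5, 29.1 and 19.6 on replicates 1 to 4. The lowest signal well above background on an array ranged from 13.6 to 17.3.

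Of 9 kinases and scaffolds upstream of NF-κB, 6 passed, against 38.7% of all genes. When every probe of a gene had to pass, 4 of the 9 did, against 33.2% of all genes. Together with Ikbkb, the other subunits of the IκB kinase complex were found: Chuk, which encodes IKKα, had log2 levels of 1.33, 1.34, 1.56 and 1.40 on replicates 1 to 4, and Ikbkg, which encodes the regulatory subunit NEMO, of 2.76, 2.99, 2.84 and 2.69. Each was detected by 1 of 2 probes. The related kinase gene Ikbke stood at 3.13 ± 0.14 (SD, n = 4). Map3k14, the kinase NIK of the non-canonical branch, passed on no array, nor did Tbk1 and Irak4.

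Of 10 measured inhibitors and feedback genes, 8 passed, against 38.7% of all genes. The count was 4 of 10 when every probe of a gene had to pass, near the 33.2% of all genes under that rule. Beside Nfkbia, the IκB genes Nfkbib and Nfkbie stood at 2.68 ± 0.22 and 1.99 ± 0.37 (SD, n = 4 each). Bcl3, a nuclear IκB protein, stood at 1.88 ± 0.22, by 1 of 2 probes, and Cyld, which removes ubiquitin chains from the complex, at 0.06 ± 0.26 (SD, n = 4 each, Cyld too by 1 of 2 probes). The Cyld signals were 42.7, 44.2, 21.0 and 23.8 on replicates 1 to 4, where the lowest signal well above background ranged from 13.6 to 17.3. Tnip1, a partner of the ubiquitin-editing enzyme A20, had the largest SD of the 47 detected genes, with log2 levels of 2.66, 3.47, 3.39 and 3.89 on replicates 1 to 4 and an SD of 0.51. Zfp36, which encodes a protein that promotes decay of Tnf mRNA, and Itch passed on no array. Tnfaip3, which encodes A20, and Nfkbiz had no matching probe.

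Of 28 known NF-κB target genes, 16 were detected, against 38.7% of all genes. Another 2 passed on 1 to 3 arrays and 10 passed nowhere. Il1b, which encodes interleukin-1β, had log2 levels of 4.04, 4.26, 4.05 and 4.25, with an SD of 0.12. The neutrophil-attracting chemokine gene Cxcl2 stood at 3.26 ± 0.40 and the macrophage chemokine gene Ccl3 at 7.27 ± 0.10 (SD, n = 4 each). The chemokine gene Ccl2 stood at 6.21 ± 0.28 and Ccl4 at 2.43 ± 0.36 (SD, n = 4 each). The adhesion receptor gene Icam1 stood at 4.57 ± 0.22, Sod2, the superoxide dismutase of mitochondria, at 3.81 ± 0.11, and the survival gene Ier3 at 3.05 ± 0.25 (SD, n = 4 each). Il1rn, which encodes the antagonist of interleukin-1, had log2 levels of 5.18, 5.04, 5.10 and 5.19, with an SD of 0.07. Il6, which encodes interleukin-6, passed on no array. Ptgs2, the inducible cyclooxygenase, was well above background on no array, with signals of 3.53, 3.72, 3.73 and 6.62. On replicate 2 the spots neighbouring that of Ptgs2 had a median deviation of -0.70, against 0.12 to 0.16 on the other arrays. Detected and undetected targets were therefore both present within the one list. As for Tnfrsf1b, a dim probe and a scarce transcript cannot be told apart where an undetected gene has 1 probe. This holds for every list. Ccl5 passed on all but replicate 3, and Nos2 had 2 probes, neither of which passed on all 4 arrays.

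Among 31 measured other ligands and receptors of the TNF family, 6 passed, a share of 19.4% against 38.7% of all genes with a symbol. They were the ligand genes Ltb, Tnfsf12 and Tnfsf13 and the receptor genes Ltbr, Tnfrsf12a and Tnfrsf21. Ltbr, the lymphotoxin β receptor, gave signals of 2977, 2436, 2183 and 1925 on replicates 1 to 4 and a log2 level of 6.30 ± 0.17 (SD, n = 4). Tnfsf12 (TWEAK) stood at 5.57 ± 0.10 and its receptor gene Tnfrsf12a at 1.28 ± 0.25 (SD, n = 4 each). Tnfrsf21 (death receptor 6) stood at 1.37 ± 0.28 (SD, n = 4). Fas passed on replicate 4 only and Tnfsf13b (BAFF) also on replicate 4 only. Tnfsf10, Tnfrsf9, Tnfrsf11a and Tnfrsf14 passed on none. The count was 10 of 31 with the looser flag, against 50.9% of all genes.

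**Figure D5:**
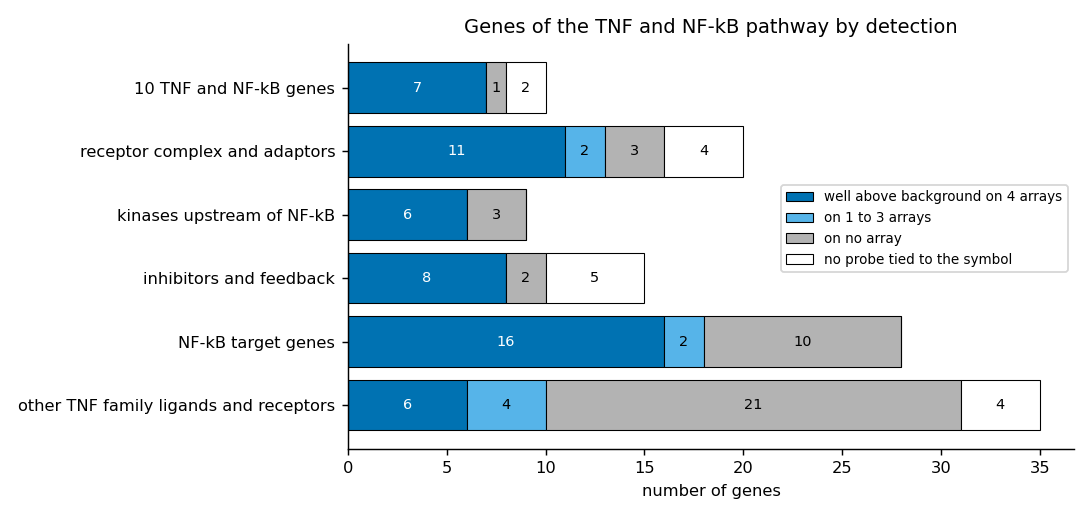
Number of genes (x axis) in the 10 TNF and NF-κB genes and in 5 lists of other pathway genes, split by the number of arrays on which they passed: all 4, 1 to 3, none, or no matching probe. The 10 genes divide into 7, 0, 1 and 2, and among the other TNF family ligands and receptors 21 of 31 measured genes passed on no array.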

How the data were processed

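Total RNA of 4 biological replicates (1 group, grouped by title; integrity number above 7.5, 100 ng labelled with Cy3, per the labels' protocols) was hybridised to 4 one-colour Agilent arrays. Deposited intensity values came from Agilent Feature Extraction 11.0.1.1 according to the submitters' processing notes. The authors' processed signal is background-subtracted, linear and unscaled between arrays, and low values sit at a floor. Background flags (0 or 1) are the software's own, per the file headers.

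Control spots (4259) and 491 to 828 spots with an outlier flag per array were left out. For each of the 45598 probes the log2 signals of its spots were averaged. Accessions without versions were matched to RefSeq transcripts of rat GRCr8 (21109 probes with 1 symbol, 24489 unnamed here). The array design names build rn4, so coordinates are those of the GRCr8 table. A probe passed on an array if at least 0.5 of its spots did, and a gene if any probe passed on all 4 arrays; the brightest probe gave its level. Levels are log2 minus the array's 75th percentile. With 1 group no test was made; the number of arrays limits precision. Members, gene lists and motifs were chosen with earlier results of these data known. Named are all 10 genes, preset pathway genes, genes that spell out a count, and a few named after their values were seen. Alternatives are given at the end. Python 3.11.15, numpy 2.4.6, pandas 2.3.3 and scipy 1.17.1 were used, with limma 3.58.1 in R 4.3.3 for normexp on median signals (offset 50). Procedures were tested on simulated data.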

Additional observations from a re-analysis of the deposited data

Results flagged for a closer look

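In 64 detected genes, among the 10 TNF and NF-κB genes, the pathway lists and the cell markers, 3 had 1 array whose gap to the nearest of the others exceeded, as a ratio to the whole range, Dixon's critical value for 4 samples, where chance gives about 1 in 20. Over all 6418 detected genes the share was 4.91%. None of the 7 detected TNF and NF-κB genes was among the 3. Ltb, the lymphotoxin β ligand, had log2 levels of 2.39, 2.88, 2.92 and 2.88 on replicates 1 to 4 (ratio 0.907), with replicate 1 apart. Tab1, which encodes a partner of the kinase TAK1, had 2.27, 2.73, 2.71 and 2.67 (ratio 0.878), again with replicate 1 apart. Tnfsf13, the ligand APRIL, had 4.70, 4.77, 4.67 and 5.25 (ratio 0.835), with replicate 4 apart.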

How the results depend on the processing

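The count of 7 detected TNF and NF-κB genes was 5 when all probes had to pass. It was 7 with the looser flag, with 3 of 4 arrays sufficing, with outlier-flagged spots kept and without each replicate (7 to 7). A looser flag or fewer arrays can only keep or raise any such count. Keeping outlier-flagged spots touched none of the probes of these genes. Counts that moved by over 1.5 times were those of the inhibitors and feedback genes (8, and 4 when all probes had to pass) and of the other TNF family genes (6, and 10 with the looser flag); without 1 replicate the latter list ranged from 6 to 7 and all lists together from 47 to 50. The median SD of the 7 genes, 0.25, lay between 0.15 with normexp and 0.31 with the mean of all probes. Levels of all 7 moved with normexp, with no scaling and with the detected-probe percentile, of which the last pair shift all 7 means by one amount; normexp lowered them unequally (Tnfrsf1a to 3.26, Nfkb1 to 0.86) and changed their SDs. With the mean of all probes Tnf moved to 1.12 and Nfkb1 to -0.01, because the dim second probe enters; the other 5 did not move. No level moved by over 1 SD with quantile normalization, local trend removal or outlier spots kept. Leaving out 1 of 4 replicates cannot shift a mean by 1 SD of the 4 values, so that setting could not show a move. The SD of Tnfrsf1a was 0.22 with normexp, 0.12 with the local trend removed and 0.40 without scaling. The SD of Rela ranged from 0.35 without replicate 4 to 0.78 without replicate 1. The count of genes above their own mean on replicate 3, an alternative added after seeing the data, was 7, and 5, 6, 2, 3 and 5 with the percentile over detected probes, quantile normalization, no scaling, normexp and local trend removal. No paired analysis was possible because the labels give 1 group. Signals near background limit what can be said of Tnfrsf1b and of the second probes of Tnf and Nfkb1.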
